A study of Rattus norvegicus with 36 samples.

Results

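The last step of male germ cell development in the series, from late spermatids to spermatozoa, was followed in 1691 regions whose DNA methylation differed between these stages in the authors' deposited list. All rows of that list were taken, 1691 of the 60036 distinct regions in the 7 lists of the series. The cells came from untreated male Sprague-Dawley rats of the transgenic genotype GFP-GCS, in which green fluorescent protein is expressed only in the germ line and marks its cells for sorting, and all 36 samples of the 9 stages carry this transgene. The earlier group was the spermatids labelled R15-17 (4 samples), a range that the labels do not spell out, and the later group the spermatozoa (4 samples), with no age given for either. Methylation was measured by bisulfite sequencing of DNA captured with a rat methylome panel, so that regions outside the panel carry no value. The labels give the samples of a stage numbers but do not say whether they came from separate animals. DNA of the sorted spermatids and DNA of the spermatozoa were extracted with different kits, so that stage and kit cannot be told apart in any difference below.

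Spermiogenesis turns the round haploid cell left by meiosis into a sperm cell with a flagellum, an acrosome and a compact head. During this time most histones give way to transition proteins and then to protamines, and transcription ceases. The bulk of the methylation pattern of male germ cells is set much earlier, in the gonocytes that precede the spermatogonia, by de novo DNA methyltransferases. Methylation sits on cytosines followed by guanines (CpGs). Promoters rich in CpGs are usually free of it, and most of the remaining genome carries it.

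Each region carries 1 mean level per stage, a methylation level averaged over its CpGs and printed in percent, and the later level minus the earlier level is expressed in percentage points. The list held no region that differed by less than 10 points, and the authors' adjusted p-values in it ran from 9.24e-17 to 0.0499. Because the samples of a stage were deposited here only as their mean, no level has a replicate error, and neither the depth behind a level nor the number of regions tested is known. What follows therefore describes the listed regions and the authors' calls, and no test was added. The coordinates are those of the list, and no source used here states their genome build.

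More of the listed regions were higher in spermatozoa than lower. Of the 1691 regions 1047 gained methylation, which is 61.9% of the list (Wilson 95% interval 59.6 to 64.2%, counting error only), and 644 lost it, which is 38.1%. The gains lay mostly at low levels: their median was 17.6% in R15-17 spermatids and 33.6% in spermatozoa. The losses lay mostly at high levels, with a median of 74.05% in R15-17 spermatids and 54.95% in spermatozoa. Most differences were small. The median size was 13.8 points, 257 regions (15.2%) differed by less than 11 points and 279 regions (16.5%) by 20 points or more. A typical region was short, with a median of 7 CpGs and 232 bp.

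**Figure D1:**
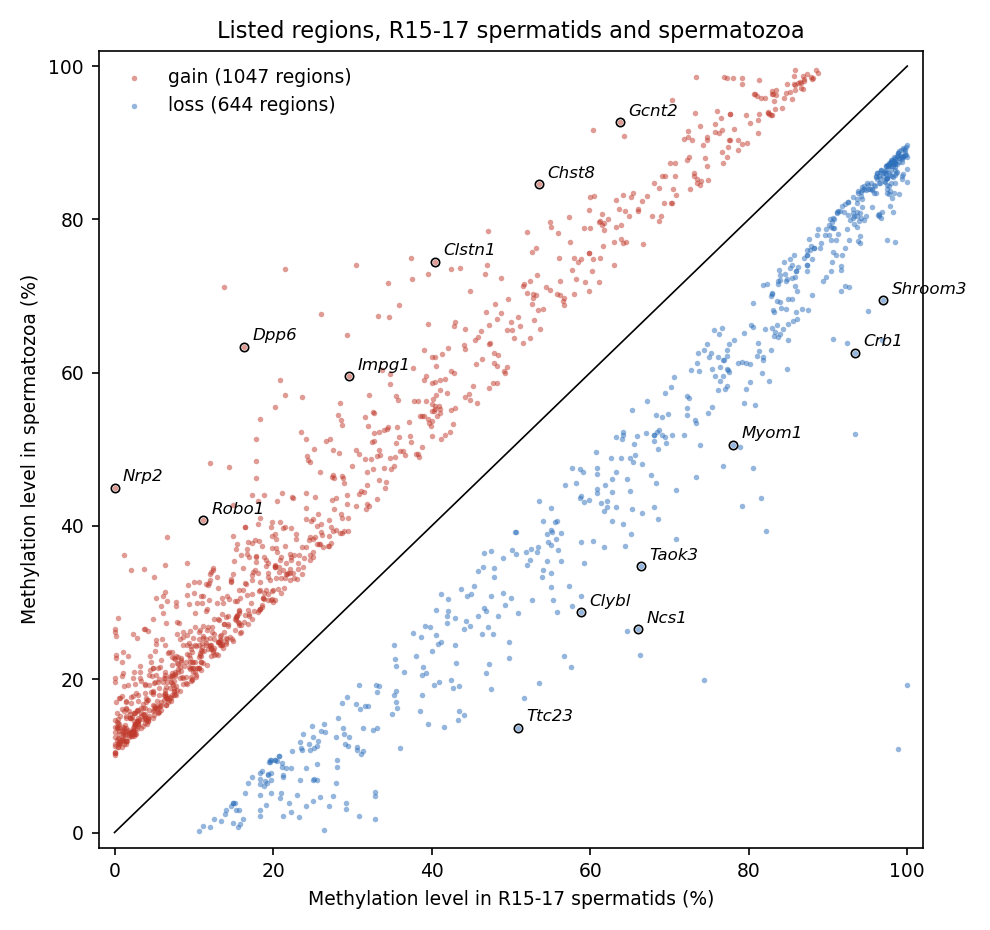
Methylation level of each of the 1691 listed regions in R15-17 spermatids (x axis, %) and in spermatozoa (y axis, %), 1 point a region, with the 7 largest gains and 7 largest losses at genes circled and named. The empty band along the diagonal is the smallest listed difference of 10 points, and the 1047 gains crowd at low levels while the losses crowd near the upper end.

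The direction followed the level at which a region started. Of 610 regions below 20% in R15-17 spermatids 570 gained (93.4%), and of 331 regions at 80% or above 284 lost methylation and 47 gained. Between these ends the directions were mixed, with gains in 280 of 430 regions that started at 20 to 50% (65.1%) and in 150 of 320 that started at 50 to 80% (46.9%). Part of this order follows from the list itself, since a region below 10% can only be listed as a gain and one above 90% only as a loss. The direction in the low band was not the same at every step: from R9-12 to R13-14, 125 of the 1381 listed regions that started below 20% gained (9.05%), and from R1-8 to R9-12, 1775 of 1822 (97.4%). Intermediate levels of 20 to 80% were held by 750 regions in R15-17 spermatids and by 1039 in spermatozoa. Part of this rise follows from the list as well, since regions near either end could be listed only if they moved inward.

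**Figure D2:**
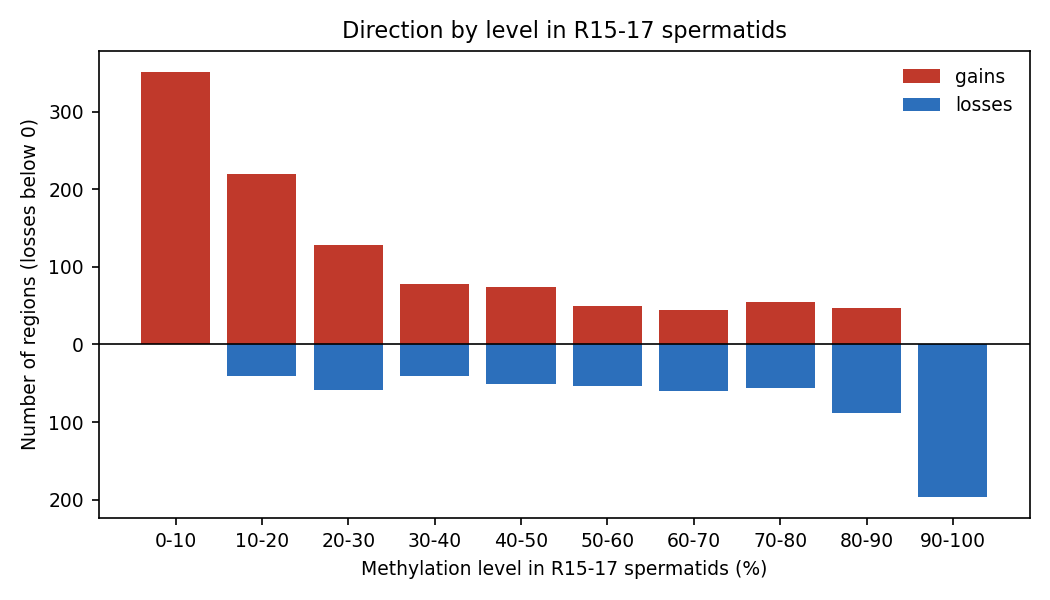
Number of gains (red, upward) and losses (blue, downward) among the 1691 regions by their level in R15-17 spermatids in bands of 10 points. All 351 regions below 10% gained, and all 196 regions at 90% or above lost methylation.

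The 3 largest gains at genes were in introns of Dpp6, Nrp2 and Clstn1. Intron 16 of Dpp6, which encodes a membrane protein that associates with voltage-gated potassium channels (chromosome 4, 4060444 to 4060612, 8 CpGs), was at 16.3% in R15-17 spermatids and at 63.4% in spermatozoa. In the earlier stages the same region was at 46.4% in R9-12 and 16.8% in R13-14 spermatids, so that spermatozoa stood above every one of the spermatid levels known for it. Intron 1 of Nrp2, a receptor for semaphorins and vascular growth factors (chromosome 9, 69498866 to 69498939, 7 CpGs), was at 0.0% and at 45.0%. An adjoining region of the same intron, 69498380 to 69498858, was at 4.8% and at 15.9%, and the first region had been at 15.6% in R1-8 and 1.8% in R9-12 spermatids. Intron 1 of Clstn1, which encodes calsyntenin, a cadherin-like protein of neurons (chromosome 5, 166561119 to 166561446, 11 CpGs), was at 40.4% and at 74.5%, and it had been at 69.5% in R1-8 and 46.4% in R9-12 spermatids.

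The remaining large gains lay at genes of varied roles. Intron 1 of Chst8, a sulfotransferase of glycoprotein hormones, went from 53.5% to 84.6%. It had been at 78.0% in R1-8, 93.6% in R9-12 and 92.0% in R13-14 spermatids. Exon 13 of Impg1, a proteoglycan of the retinal matrix, went from 29.6% to 59.5%, and intron 1 of Gcnt2, the enzyme that branches the I blood group antigen, from 63.8% to 92.7%. Exon 9 of Lmna, which encodes lamins A and C of the nuclear envelope (chromosome 2, 187845423 to 187845817), went from 47.0% to 74.1%. Regions of Paqr9 and Arhgap20, a membrane receptor of the progestin and adipoQ family and a GTPase-activating protein, were nearly unmethylated in R15-17 spermatids, at 0.4% and 0.0%, and reached 28.0% and 26.6%. Intron 7 of Klkb1, which encodes plasma prekallikrein, went from 64.3% to 90.9%. In R13-14 spermatids Impg1 had been at 47.4%, Gcnt2 at 87.2% and Klkb1 at 89.5%. For the regions of Lmna, Paqr9 and Arhgap20 no earlier spermatid level is known.

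The largest losses at genes were again mostly in introns. Intron 1 of Ncs1, a neuronal calcium sensor (chromosome 3, 10588573 to 10588741, 5 CpGs), was at 66.0% in R15-17 spermatids and at 26.5% in spermatozoa. Intron 1 of Ttc23, whose protein sits at the base of cilia in the mouse (chromosome 1, 128614636 to 128614737, 6 CpGs), was at 50.9% and at 13.7%. For Ttc23 the earlier spermatids were all low, at 14.1% in R1-8, 0.0% in R9-12 and 1.0% in R13-14, and PND5 spermatogonia had been at 39.2%. The transcription end of Taok3, a stress-pathway kinase (chromosome 12, 45037382 to 45037483, 10 CpGs), was at 66.4% and at 34.8%, with 41.4% in R9-12 and 21.0% in R13-14 spermatids.

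Further losses at genes ran over the whole range of levels. Intron 8 of Crb1, a polarity gene of photoreceptors, fell from 93.4% to 62.6% in the authors' list, intron 9 of Shroom3, which shapes epithelial cells, from 97.0% to 69.5%, and intron 39 of Myom1, the myomesin of the sarcomere, from 78.0% to 50.6%. The 3' UTR region of Mc5r, a melanocortin receptor, went from 70.8% to 44.7% and intron 1 of Clybl, a mitochondrial enzyme, from 58.8% to 28.8%. Other regions ended nearly unmethylated. Intron 1 of Ninj2, an adhesion molecule of nerve, went from 29.2% to 3.1%, intron 3 of Pde3a, a phosphodiesterase that hydrolyses cyclic nucleotides, from 29.2% to 3.8%, and intron 4 of Mgat5b, a glycosyltransferase of brain, from 43.5% to 19.1%.

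The very largest differences had no gene symbol. The regions on chromosomes 9 and 14 given here lay outside the authors' gene annotation, so whether a gene holds them is not known. A region of 91 bp with 5 CpGs on chromosome 9 (44789228 to 44789318) was at 98.8% in R15-17 spermatids and at 10.9% in spermatozoa, a loss of 87.9 points. A region of 46 bp with 5 CpGs on chromosome 14 (10624496 to 10624541) was at 100% and at 19.3%. Both had been low in the other spermatids, the first at 4.6% in R1-8, 20% in R9-12 and 5.3% in R13-14, the second at 8.0%, 18.9% and 7.5%. The largest gain of all, on chromosome 4 (40004640 to 40004723, 8 CpGs), was from 13.8% to 71.2%, with 64.7% in R9-12 and 44.4% in R13-14 spermatids. A gain on chromosome 11 (75855768 to 75855930) was from 21.5% to 73.5%, and there the spermatids had been at 42.2% in R1-8, 76.7% in R9-12 and 80.4% in R13-14.

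Differences this large were few and lay in small regions. Only 55 regions (3.25%) differed by 30 points or more, 33 gains and 22 losses. The authors' gene annotation covered 34 of them, of which 9 lay in genes. Of these 55 regions 34 held 5 or 6 CpGs (61.8%), against 678 of the whole list (40.1%), and their median length was 137 bp. A mean over 5 or 6 CpGs rests on fewer measurements than one over many, and the part of CpG number in the size of these differences was not tested.

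The authors annotated genes only for some sets of regions: their spermatid clusters, their sets of gaining regions and the list from GD16 to GD18. Of the 1691 regions 1267 (74.9%) were in such a set and are called placed here. The other 424 were not, so that their position is not known. Most of the placed regions, 813 of the 1267 (64.2%), had no entry among the authors' genic regions and are counted as intergenic. A total of 274 were intronic (21.6%), 91 exonic (7.18%) and 48 in promoters (3.79%). A further 23 lay at transcription ends, 17 in 3' UTRs and 1 in a 5' UTR, that of Cdc42ep3, an effector of the GTPase Cdc42, which went from 63.3% to 79.0%. Gains outnumbered losses in every one of these parts, with 514 against 299 between genes, 160 against 114 in introns, 60 against 31 in exons and 29 against 19 in promoters. Exonic regions were the most CpG-dense, with a median of 5.09 CpGs per 100 bp against 3.15 in introns and 3.33 between genes. In the 3 earlier spermatid lists in order, introns held 24.3%, 25.4% and 29.9% of the placed regions and promoters 3.42%, 3.31% and 3.38%. The differences between these shares were not tested.

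Promoter regions split by their starting level, as the whole list did. Of the 48 promoter regions 24 started below 20%, and 21 of these gained. The promoter gains had medians of 5.7% in R15-17 spermatids and 17.8% in spermatozoa, and the losses 50.0% and 30.6%. The largest gain was at Robo1, the receptor of Slit guidance cues (chromosome 11, 9208880 to 9208976, 6 CpGs), at 11.2% and then 40.8%. The promoter of Cep295, a centriole protein (chromosome 8, 13909881 to 13909979, 5 CpGs), went from 39.1% to 63.0%, and that of Chrna9, a nicotinic receptor subunit (chromosome 14, 43889940 to 43890915, 12 CpGs), from 72.4% to 91.5%. In R13-14 spermatids Robo1 had been at 23.9%, Cep295 at 70.8% and Chrna9 at 86.4%. Among promoters almost without methylation in R15-17 spermatids, Spaca1, which encodes an acrosome membrane protein needed for sperm head shape in the mouse (chromosome 5, 49439428 to 49439663, 7 CpGs), was at 1.6% and at 12.0%. Rpl22, a ribosomal protein gene, was at 0.0% and at 13.8%, and Usp26, an X-linked deubiquitinase gene expressed in the testis, at 0.7% and at 11.8%. These ends stayed low: of the named promoters that started under 3%, those of Spaca1, Rpl22, Usp26, Zfp131, Dapk1, Ddx18, Zbtb42, Abhd14a, Arl9, Rabepk and Krt72 ended between 11.3% and 17.8%. Some had been as high before. Spaca1 was at 13.5% in R9-12 and 0.7% in R13-14 spermatids, and Rpl22 at 1.4% and 18.1%. Abhd14a, Rabepk and Krt72 were at 23.0%, 24.2% and 20.8% in R9-12 and at 0.9%, 3.9% and 4.1% in R13-14 spermatids. For the others of this group no earlier spermatid level is known.

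The largest promoter loss was at Maff, a small Maf transcription factor (chromosome 7, 120580619 to 120580668, 7 CpGs), which was at 0.2% in R13-14 spermatids, 26.4% in R15-17 spermatids and 0.3% in spermatozoa. Mboat4, the acyltransferase that modifies ghrelin, went from 38.8% to 17.9%, and Pheta2, an endocytic adaptor, from 50.0% to 30.6%. The end points differed. The promoters of Igfbp5, which binds insulin-like growth factors, and Nme8, a thioredoxin-domain gene of the sperm tail, came down from 22.2% and 21.2% to 8.4% and 7.5%. Those of Gpm6b on the X chromosome, a proteolipid of the nervous system, and Fermt1, an integrin activator of epithelia, remained high at 81.0% and 83.7% after 98.2% and 97.8%.

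**Figure D3:**
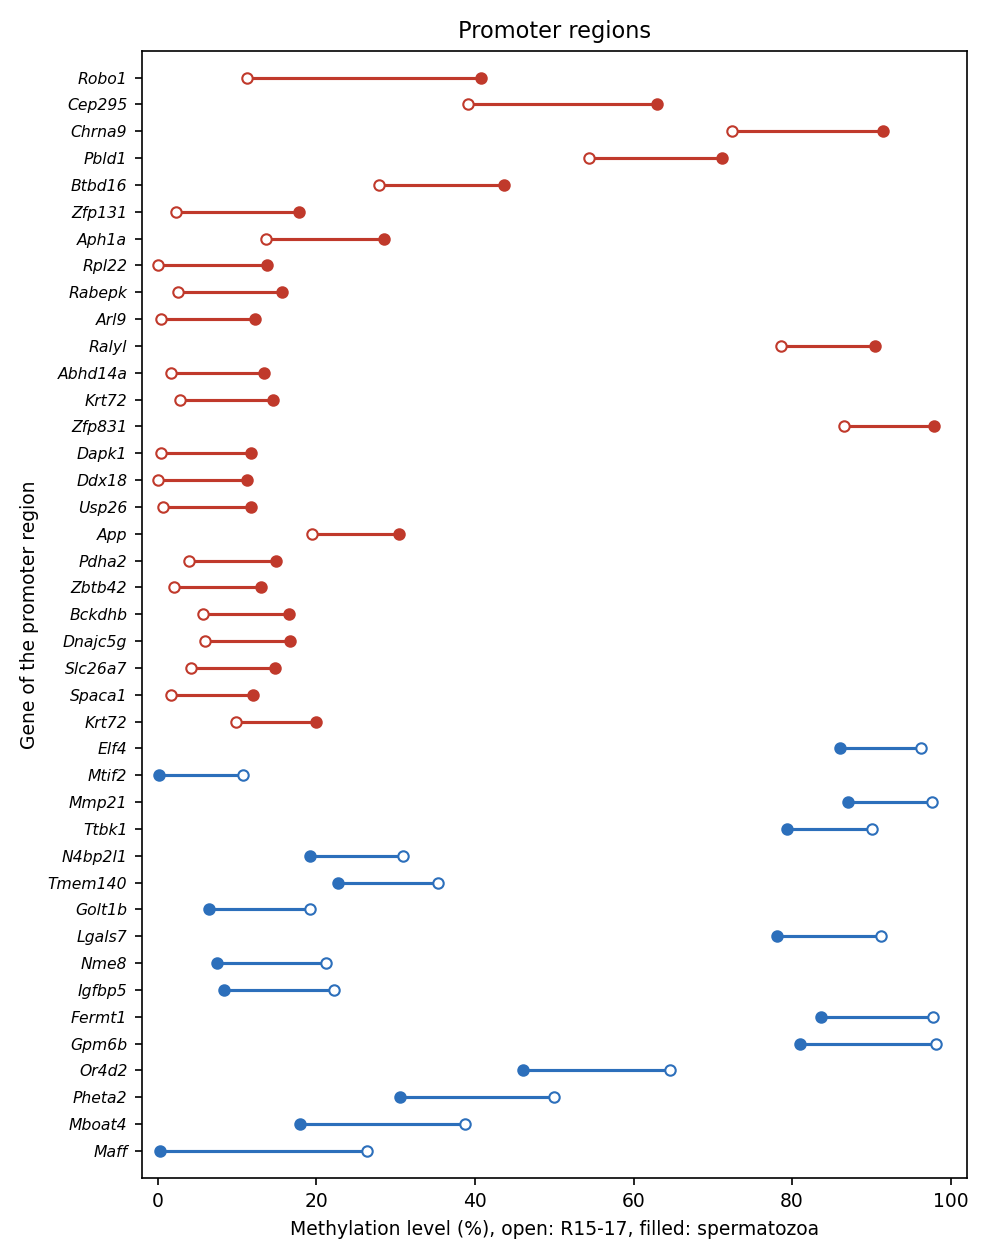
Level of 41 promoter regions with a gene symbol in R15-17 spermatids (open circles) and spermatozoa (filled circles), in %, with gains in red and losses in blue, ordered by the difference. A further region, at Rpl7a, is left out because the list and the name table place that gene on different chromosomes. Most gains start near 0 and stay below 20%, while the losses start anywhere from Mtif2 at 10.7% to Gpm6b at 98.2%.

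The DNA of 5 of these promoters is shown because they include CpG-rich and CpG-poor windows and low and high starting levels. The sequences are RefSeq promoters of assembly GRCr8, from 250 bases before to 50 after the start of the gene, printed 5' to 3' on the strand of the gene with CpGs in capitals. Since GRCr8 is not known to be the build of the list, where a listed region lies within its window is not known.
Maff, chr7:112792537-112792836, plus strand: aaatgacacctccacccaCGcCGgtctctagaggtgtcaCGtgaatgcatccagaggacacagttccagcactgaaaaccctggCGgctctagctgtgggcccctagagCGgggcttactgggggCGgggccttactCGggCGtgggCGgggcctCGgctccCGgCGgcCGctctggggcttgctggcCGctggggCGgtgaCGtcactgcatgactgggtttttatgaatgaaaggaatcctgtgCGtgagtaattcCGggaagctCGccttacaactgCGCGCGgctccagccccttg
Spaca1, chr5:53336808-53337107, minus strand: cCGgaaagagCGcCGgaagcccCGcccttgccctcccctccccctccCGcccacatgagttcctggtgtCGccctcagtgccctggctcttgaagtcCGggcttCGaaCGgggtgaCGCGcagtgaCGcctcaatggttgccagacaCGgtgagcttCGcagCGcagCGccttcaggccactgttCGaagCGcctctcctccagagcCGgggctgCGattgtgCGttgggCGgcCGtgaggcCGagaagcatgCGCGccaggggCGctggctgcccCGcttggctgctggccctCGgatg
Cep295, chr8:20475802-20476101, minus strand: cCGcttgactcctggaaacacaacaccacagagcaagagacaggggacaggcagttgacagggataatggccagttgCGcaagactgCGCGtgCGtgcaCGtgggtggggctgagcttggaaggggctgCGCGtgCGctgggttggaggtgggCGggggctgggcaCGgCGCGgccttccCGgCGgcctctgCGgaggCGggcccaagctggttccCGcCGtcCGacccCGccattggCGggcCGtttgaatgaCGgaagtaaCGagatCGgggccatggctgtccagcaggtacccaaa
Chrna9, chr14:42595620-42595919, minus strand: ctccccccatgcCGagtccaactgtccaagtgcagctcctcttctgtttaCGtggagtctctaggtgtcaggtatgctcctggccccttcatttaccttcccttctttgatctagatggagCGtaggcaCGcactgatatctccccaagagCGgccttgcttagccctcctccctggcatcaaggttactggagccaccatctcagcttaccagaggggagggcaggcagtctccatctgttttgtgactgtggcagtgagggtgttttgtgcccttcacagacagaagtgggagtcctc
Fermt1, chr3:140666370-140666669, minus strand: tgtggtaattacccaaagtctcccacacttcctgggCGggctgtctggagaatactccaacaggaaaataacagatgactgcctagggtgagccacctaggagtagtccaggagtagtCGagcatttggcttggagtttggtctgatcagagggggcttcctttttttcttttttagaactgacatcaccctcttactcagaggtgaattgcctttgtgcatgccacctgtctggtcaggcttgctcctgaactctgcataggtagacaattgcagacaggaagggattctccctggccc
The windows hold 22 CpGs for Maff, 29 for Spaca1, 26 for Cep295, 5 for Chrna9 and 2 for Fermt1, against a median of 7 over the 33469 promoters of the table. Of the 41 genes with a listed promoter region 35 matched 1 window on the same chromosome. Among them the 16 genes whose promoter region started below 20% and gained had a median of 21.5 CpGs, and the other 19 had a median of 8. The palindrome TGACGTCA, the cyclic AMP response element read by the spermatid regulator CREM among others, was found in 1 of the 35 windows, that of Maff, and in 612 of all 33469 (1.83%).

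Genes were grouped by lists of known functions. The annotation names only genes that hold a region of one of the authors' annotated sets, 8134 in all. In every list below only such genes are counted. Each count is read against the 391 of these 8134 genes (4.81%) that held a listed region, 239 with a gain (2.94%) and 160 with a loss (1.97%). This is not a share over all genes or over the genes of the panel, and the 424 regions without a place carry no gene name. Of the 61 annotated genes of synapse and axon guidance 8 were listed (13.1%, Wilson 95% interval 6.80 to 23.8%), 5 with gains and 3 with losses. The gains were at the receptors Robo1, Nrp2 and Nrp1, at Dlgap2, a scaffold of the postsynaptic density, and at Syn3, a synapsin. The losses were at Efnb2, an ephrin ligand, at Unc5a, a netrin receptor, and at Dlgap1. Intron 2 of Nrp1 was at 8.6% and at 24.4%, and intron 1 of Dlgap2 at 37.8% and at 56.3%, while intron 1 of Efnb2 was at 97.3% and at 85.3% and intron 1 of Unc5a at 99.2% and at 89.1%. Each of the 3 losses started above 90%, where only a loss can be listed. Of the 6 gain regions 4 started below 20%, as did 570 of the 1047 gains of the whole list.

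Of the 30 annotated cadherin genes 5 were listed (16.7%), 4 with gains and 1 with a loss. Cdh10, Cdh8 and Dchs1 started at 5.0%, 9.5% and 1.9% and ended at 16.5%, 22.8% and 14.9%. Cdh13 gained in introns 2 and 4, and intron 8 of Pcdh15, a cadherin of the hair cell tip link, was at 84.8% and at 72.2%. Of the 53 annotated potassium and calcium channel genes 6 were listed (11.3%), 5 with gains. Both listed regions of Kcnk1, a channel that leaks potassium, rose in intron 2, from 26.2% to 38.8% and from 50.2% to 65.6%. The loss was at intron 44 of Cacna1b, the N-type calcium channel of nerve terminals, from 77.2% to 60.5%. The intervals of these shares are wide, 7.34 to 33.6% for the cadherins and 5.29 to 22.6% for the channels, and long genes with many captured regions have more chances to be listed, which was not tested.

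Genes with known roles in the germ line itself were counted next. Of 38 germline and piRNA genes 18 were in the annotation, and of 24 genes of the DNA methylation machinery 11. No listed region was annotated to any of these 18 or 11 genes. The genes outside the annotation could not be checked. Of 24 annotated genes of spermatid chromatin and the acrosome 1 was listed, Spaca1, described above. Of 21 genes of the sperm tail 2 were listed, Tekt2, a filament protein of the axoneme, at exon 3 with 10.2% and then 22.3%, and Spag16, of the central pair of the axoneme, at intron 4 with 0.3% and then 14.4%. At Spag16 the levels before had been 1.9% in R1-8, 21.3% in R9-12 and 12.9% in R13-14 spermatids, so that R15-17 was the lowest of the 5 stages. With so few annotated genes in these lists, a share of none is compatible with up to 17.6% for the germline genes and 25.9% for the methylation machinery (upper Wilson bounds).

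Of the 8 annotated imprinted genes only Rasgrf1 was listed. Exon 23 of Rasgrf1, a guanine nucleotide exchange factor expressed from the paternal allele in the mouse brain (chromosome 8, 97359651 to 97359874, 12 CpGs), was at 87.5% in R15-17 spermatids and at 68.2% in spermatozoa, after 64.1% in PND5 spermatogonia and 62.7% in R13-14 spermatids. Of 14 stem cell genes 3 were listed. The introns of Ret, the receptor for GDNF, and of Pax7, a marker of a rare spermatogonial population in the mouse, went from 98.2% to 87.0% and from 99.3% to 85.6%, and exon 6 of Prdm1, which specifies germ cells, from 23.7% to 37.3%.

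Other families stayed near the background. Listed were 3 of 56 Wnt, BMP and TGF-beta genes, 2 of 37 chromatin enzymes, 2 of 39 developmental transcription factors, 10 of 205 solute carriers and 3 of 63 olfactory and vomeronasal receptors. Examples were intron 1 of Bmp7 at 90.1% and 77.9%, exon 20 of the deacetylase gene Hdac5 at 88.5% and 99.5%, intron 2 of Nkx6-1 at 2.4% and 14.5%, and intron 2 of the nucleoside transporter gene Slc29a4 at 97.5% and 77.3%. Genes that mark other cells of the testis were checked as well, as far as the annotation holds them. It held 14 of 19 markers of Sertoli cells, 3 of 14 of Leydig and peritubular cells and 9 of 16 of blood and endothelium. None of these annotated markers was listed, and the others could not be checked. Of 17 annotated markers of the epididymal epithelium 1 was listed, Ros1, a receptor tyrosine kinase, at 45.9% and then 64.7%, with 79.7% in R9-12 and 92.0% in R13-14 spermatids. The methylation of a marker gene identifies no cell, and admixture of other cells was not tested.

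Several genes held more than 1 region, and their regions did not always move together. Of 25 genes with 2 or more regions 4 had 3. Both a gain and a loss were held by 8 of the 25, and in the other genes all listed regions went the same way. In exon 4 of Ston2, an endocytic adaptor, neighbouring regions went opposite ways: 115408620 to 115409297 on chromosome 6 was at 65.5% and at 50.7%, and 115409339 to 115409396 at 68.7% and at 84.1%. Hs6st3 and St6galnac3, which encode enzymes that modify heparan sulfate and glycans, each had 1 gain and 2 losses in introns.

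On the X chromosome 39 regions were listed (2.31%), 27 gains and 12 losses. The largest loss there (123023087 to 123023328, 10 CpGs) was from 32.9% to 1.7%, and R13-14 spermatids had been at 4.1%. The largest gain (74371729 to 74371806, 5 CpGs) was from 12.1% to 48.2%, after 28.7% in R1-8 and 60.9% in R9-12 spermatids.

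The same regions were then followed back through the earlier stages, as far as other lists hold them. From the lists that share no stage with this step, 349 regions were also listed between R1-8 and R9-12 (20.6% of the 1691 and 9.35% of that list) and 420 between R9-12 and R13-14 (24.8% and 7.48%). Of 346 regions with identical bounds in the first of these lists 171 gained at both steps, 79 gained first and lost later, 52 lost first and gained later, and 44 lost at both. Between R9-12 and R13-14, 417 regions had identical bounds, of which 223 had lost methylation then and gained it now. Of the remaining ones 98 lost at both steps, 58 gained at both, and 38 gained first and lost later. These counts stand beside whole lists with 66.8% gains from R1-8 to R9-12, 80.3% losses from R9-12 to R13-14 and 61.9% gains at the last step. Whether the directions at 2 steps were linked beyond these shares was not tested. R9-12 levels were known for 586 regions. Among the 383 of them that gained on the way to spermatozoa, the median was 34.2% in R9-12 spermatids, 16.7% in R15-17 spermatids and 33.7% in spermatozoa. For 304 of these 383 regions (79.4%) the level in spermatozoa was the nearer one to R9-12, while for the 203 losses it was nearer in 99. An R9-12 level is known only where R9-12 was listed as different from a neighbouring stage, mostly as the higher one. The gains were also chosen for an R15-17 level below that of spermatozoa. These medians and distances are therefore bound up with the choice of the regions and support nothing. The list from R13-14 to R15-17 shares the R15-17 samples with this step, so that its overlap is not read here.

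A total of 56 regions was listed at all 4 steps from R1-8 spermatids to spermatozoa, 22 of them gains and 34 losses at the last step. Of the 34 losses 32 went up, down, up and down in turn, and of the 22 gains 13 went down, up, down and up. Their medians over R1-8, R9-12, R13-14, R15-17 and spermatozoa were 29.6%, 48.35%, 25.7%, 59.5% and 36.85% for the losses and 59.7%, 57.15%, 66.85%, 35.7% and 57.2% for the gains. Since R15-17 enters the last 2 of these lists, its distance from both neighbours was set by the choice of the regions. Its distance from R1-8 spermatids is bound up with that choice too and supports nothing: in these 56 regions spermatozoa were within 10 points of the R1-8 level in 43 and R15-17 spermatids in 4. Over all 346 regions with an R1-8 level, spermatozoa were within 10 points of it in 207 and R15-17 spermatids in 190. Among the 223 gains of the 346, spermatozoa were the nearer in 104, with a median distance of 8.6 points against 6.7 for R15-17 spermatids, and among the 123 losses in 81, with 7.7 against 12.7 points.

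**Figure D4:**
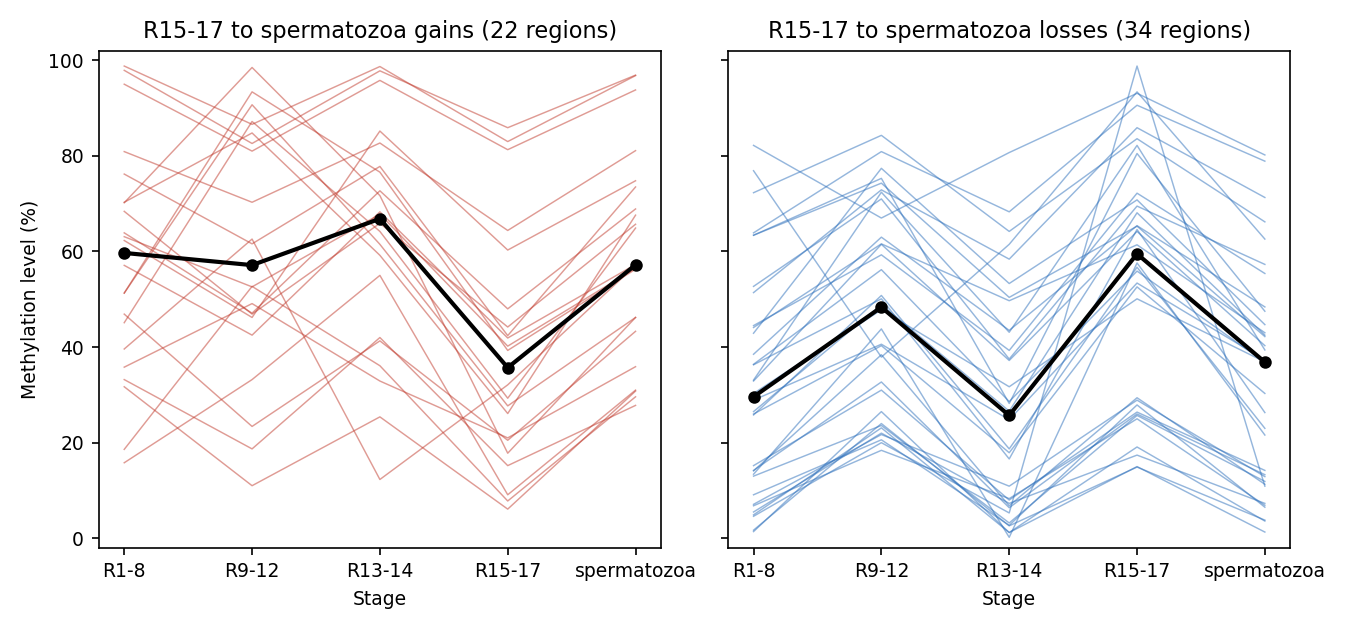
Methylation level (y axis, %) at 5 successive stages of the 56 regions that were listed at all 4 spermatid steps, 22 gains at the last step on the left and 34 losses on the right. Thin lines are regions and the black line is their median, which stands at 35.7% in R15-17 spermatids for the gains and at 59.5% for the losses.

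The courses of single regions varied. The Crb1 intron described above was at 76.9% in R1-8, 37.9% in R9-12, 61.5% in R13-14, 93.4% in R15-17 spermatids and 62.6% in spermatozoa, and it had been at 62.8% in PND5 spermatogonia. Intron 5 of Syn3 was at 62.3%, 46.2%, 85.2%, 60.3% and 74.8% over the same 5 stages. The Mc5r region was at 42.9%, 77.4%, 53.3%, 70.8% and 44.7%. A region without a gene symbol on chromosome 4 (133680464 to 133680719, 11 CpGs) was at 70.3%, 84.8%, 59.2%, 26.1% and 67.6%, so that R15-17 was the only one of its 5 stages below 50%.

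The regions were also looked up in the fetal and neonatal lists. Of the 1691 regions 636 (37.6%) were also listed between GD20 gonocytes and PND5 spermatogonia, where they are 1.37% of that much longer list, 171 (10.1%) between GD18 and GD20, and 24 (1.42%) between GD16 and GD18, where they are 8.51% of a list of 282. The authors' set of regions that gain methylation late, after GD20, held 495 of the 1691 (29.3%), 250 gains and 245 losses, against 17.8%, 18.0% and 27.5% of the earlier spermatid lists in order. Levels in PND5 spermatogonia were known for 634 regions. Among the 300 of them that gained from R15-17 spermatids to spermatozoa, the medians were 69.35% in PND5 spermatogonia, 53.3% in R15-17 spermatids and 72.65% in spermatozoa, and spermatozoa were the nearer to PND5 in 226 (75.3%). Among the 334 losses the medians were 78.6%, 90.2% and 75.55%, and spermatozoa were the nearer in 158 (47.3%). The gains ended within 10 points of the PND5 level in 179 of 300 regions, against 90 in R15-17 spermatids, and the losses in 169 of 334, against 201. A PND5 level is known only for regions of the list from GD20 to PND5, where 46661 of 46665 were gains, each of 30 points or more. The gains of the last step were in turn chosen for an R15-17 level below that of spermatozoa. These distances are therefore bound up with the choice of the regions and support nothing about a return to the PND5 level.

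**Figure D5:**
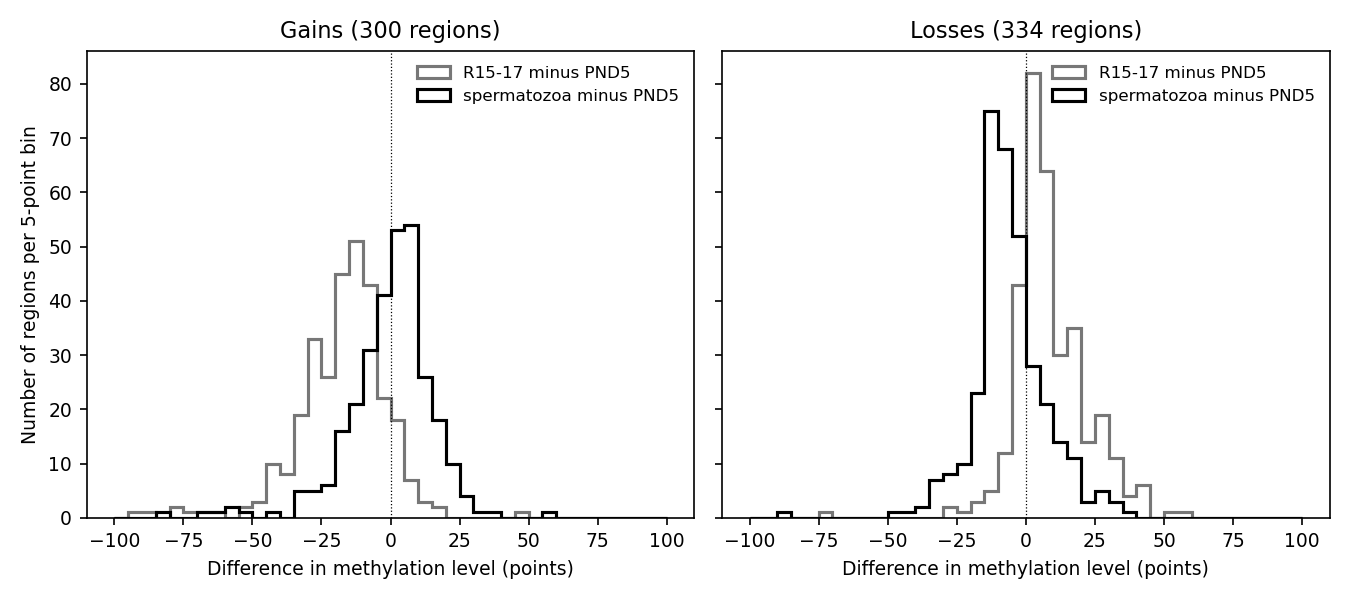
Difference from the level in PND5 spermatogonia (x axis, points) of R15-17 spermatids (grey) and of spermatozoa (black), as numbers of regions in bins of 5 points, for 300 gains (left) and 334 losses (right). The black line of the gains is centred near 0, with 179 regions within 10 points, and the losses have 201 regions within 10 points in R15-17 spermatids. The distances are bound up with the choice of the regions.

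The authors also grouped the regions of the spermatid lists by their course over the stages. The clusters they deposited are those numbered 3, 4, 7 and 8, and 820 of the 1691 regions fell in 1 of these 4. Cluster 3 held 257 regions, 202 of them gains, with medians of 3.1% in R15-17 spermatids and 14.0% in spermatozoa. Cluster 4 held 328 regions, 262 of them gains, at 10.9% and 22.2%. Cluster 7 held 150 regions, of which 101 were losses, at 96.15% and 87.45%, and cluster 8 held 85, with 39 gains and 46 losses. The other 871 regions (51.5%) were in none of these clusters, against 29.1%, 26.8% and 35.5% of the earlier spermatid lists in order. Whether they belong to clusters with other numbers is not known. These 871 regions had intermediate levels, with medians of 50.9% and 53.4%, and 495 of them gained.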

How the data were processed

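Capture bisulfite sequencing of 4 samples of R15-17 spermatids and 4 of spermatozoa underlies the list, with groups taken from the stage in each title. The submitters' processing notes name Bowtie2 and Bismark 0.19.0, and per the labels the panel was the Rat SureSelectXT Methyl-Seq kit. No source used here states the genome build or the coverage minimum. The authors deposited, per the file headers, a methylation fraction between 0 and 1 as the mean over CpGs of each stage, printed in percent. Each region also has a p-value deposited by the authors, from a two-sample test whose replicate unit is not stated, and an adjusted p-value. Per the labels, segments had at least 50 bp, but 38 listed regions are shorter.

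The later minus the earlier level was computed in pandas 2.3.3. Lists were matched region by region where these shared 1 bp or more, and regions were joined to the authors' annotation after moving its start by 1 bp. Of 454 regions placed in genes 420 had a symbol in the GRCr8 name table, which served for names and promoter sequences, and 2 of these lay on another chromosome there. Wilson 95% intervals on shares reflect counting error alone and take neighbouring regions as independent. Depth is unknown. The functions were tested on simulated data.

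Genes were named by rule: the 12 largest gains and losses at genes, the 8 at promoters, the 5 without a symbol, the 3 on the X chromosome, genes with 3 or more regions, the 10 largest of the regions in all 4 spermatid lists, and members of the gene lists. The members, rules and gene lists were chosen with earlier results of these data known. Other promoters, Cdc42ep3, Syn3 and Mc5r in the course over stages and the stretch on chromosome 18 were chosen after their values were seen. Alternatives were other thresholds of size, p-value, CpG number, length and overlap. The authors' gene ontology tables were not used here. 1 gene that the rule names is not reported here.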

Additional observations from a re-analysis of the deposited data

How the results depend on the processing

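No paired analysis was possible because the deposited levels are means of a stage, in which the replicate numbers are no longer visible; for the same reason no replicate could be left out. Gains outnumbered losses under every alternative tried. The main list holds 1047 gains and 644 losses, a share of gains of 61.9% and a median size of 13.8 points. With a smallest difference of 15 points there were 428 gains and 289 losses, with a median of 18.7 points, and with 20 points 165 and 114, a share of 59.1% and a median of 23.9 points; these counts fall and these medians rise by construction. At an adjusted p of at most 0.01 there were 629 gains and 315 losses, a share of 66.6% and a median of 14.8 points. Of the alternatives chosen after seeing the data, at least 10 CpGs left 316 gains and 174 losses, a share of 64.5%, a median of 12.9 points and a promoter share of 1.74% of placed regions in place of 3.79%; the cause of the last was not tested. Both limits together left 245 and 119, a share of 67.3%. A minimum of 5 CpGs changed nothing, since the list has none below it, and a length of at least 50 bp, merging neighbours within 1000 bp, autosomes only and stricter overlaps moved no count by over 1.5 times. The levels have no replicate error and no known depth, which limits every single value, most of all in regions of 5 or 6 CpGs.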

Other observations

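With listed regions joined where they lay within 50000 bp of each other, the largest group was on chromosome 18, and it was chosen after the values were seen. All 4 of its regions, within 19160 bp, were losses: intron 21 of F8, the coagulation factor VIII gene, at 92.5% in R15-17 spermatids and 82.3% in spermatozoa, an unplaced region at 389829 to 389961 at 53.9% and 33.3%, another at 395589 to 395720 at 53.3% and 36.6%, and exon 2 of Fundc2, a mitochondrial outer membrane protein gene, at 23.6% and 10.7%. Most listed regions had no such neighbour: 1413 of the 1691 had no other listed region within 50000 bp.

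The authors also deposited segments that they call reprogrammed, 17 in genes and 28 between genes. Of these 2 and 7 overlapped a region of the list. In genes they were Unc119b, which carries lipid-modified proteins to cilia, at 68.6% in R15-17 spermatids and 50.1% in spermatozoa, and Cxxc5, which encodes a protein that binds unmethylated CpGs, at 86.9% and 97.0%. Of the 7 between genes 5 gained, the most on chromosome 1 (173190984 to 173191230, 12 CpGs) from 2.1% to 34.3%, and 2 lost methylation, on chromosome 9 from 47.5% to 30.9% and on chromosome 10 from 35.5% to 18.5%. Gains were 61.9% of the whole list. The number of regions tested is not known, so no share over all segments can be set beside the overlaps of 2 and 7.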
